A study of Arabidopsis thaliana with 72 samples.

Results

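Leaf transcript levels of 2 natural demes of Arabidopsis thaliana, A1(c+) and T6(c-), were compared in plants kept at the control pH of 5.9 and harvested at 48 h. A deme is a small local population. A1(c+) is the moderately alkalinity-tolerant deme of the study and T6(c-) the sensitive one, and here neither had met the alkaline treatments. The comparison uses 12 of the 72 libraries, which were deposited as 4 of 24 columns of log2 CPM (the reads of a gene scaled to a common library size, on a log2 scale), 2 columns for each deme. The columns were taken by the deme, treatment and harvest in their labels, and no measured value chose them.

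Both groups carry no transgene or mutation named in the labels. Their seeds came from a reciprocal transplant experiment, and the plants grew in hydroponics on diluted Hoagland solution buffered at pH 5.9, under days of equal light and dark. Treatments began when the seedlings were 15 days old, so the 48 h plants differ from the 3 h plants in age as well as in time of day. By the intervals alone, the 48 h harvest fell at the same hour of the day as the start of the treatment and the 3 h harvest 3 h after that hour. The hour itself is not given in the sources used here. The other groups of the series, at pH 8.3 and at pH 8.3 with 10 mM NaHCO3 (bic), enter where the deme differences or the harvests are followed outside pH 5.9 and in the estimate of the spread. Leaves of 12 plants of a line and treatment were pooled. The methods speak of 3 biological replicates in 1 place and of 2 in another, each of those run as 3 technical ones, so whether the 2 columns of a group come from separate plants is not known. The p-values therefore measure only the spread between columns of the same group. This spread was taken over all 24 columns of the series, so most of it came from groups other than those compared. Reads were aligned to the Col-0 reference, which is neither deme: a gene that is lost or diverged in a deme cannot be told apart from one that is not transcribed. In whole leaves, fewer cells of a type and less RNA per cell cannot be told apart either.

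The plant circadian clock is a loop of transcriptional regulators that repress one another in turn through the day. The MYB factors CCA1 and LHY peak around dawn and repress evening genes through a short promoter sequence called the evening element. The pseudo-response regulators PRR9, PRR7, PRR5 and TOC1 follow in that order through the day and repress CCA1 and LHY, and the evening complex of ELF3, ELF4 and LUX closes the loop at night. Because so many leaf genes follow this loop, the levels of its members show at what stage of the cycle leaves were frozen.

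The 4 columns held between 93.28 and 105.1 M reads. The columns of T6(c-) were nearly alike, with a Pearson correlation of 0.997 across genes and 73 of 18603 genes (0.392%) over 2-fold apart. Those of A1(c+) correlated at 0.979, with 915 genes (4.92%) over 2-fold apart. Across the series, some columns of both demes outside pH 5.9 stood on the side of the other deme for part of the genes near 0 in 1 deme. The counts are given with those genes, and why they did so was not tested. All 13 leaf markers were measured and none passed the test between demes, with a median log2 difference of -0.38. Photosystem II antenna gene LHCB2.1 had 363 and 373 CPM in A1(c+) and 696 and 700.3 CPM in T6(c-), an adjusted p of 0.0131 by limma with a log2 difference of -0.92, below the limit of 1 that a call required.

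A gene was called where limma, a linear model with a moderated spread fitted to all 24 columns, gave an adjusted p under 0.05 over all 18603 genes and a log2 difference beyond 1. At pH 5.9 and 48 h, 1424 genes (7.65%) were called, of which 455 (2.45%) were higher and 969 (5.21%) lower in A1(c+). The median log2 difference was 1.87 over the higher and -2.17 over the lower genes, against -0.04 over all genes. None of the called genes overlapped between the demes, and neither did 74.6% of all genes. At an unadjusted p under 0.05 there were 5608 genes (30.1%). The lower genes were mostly weakly expressed. Of the 11125 genes with a mean of at least 10 CPM, 206 (1.85%) were higher and 180 (1.62%) lower, and of the 7478 genes under it 249 (3.33%) were higher and 789 (10.6%) lower. Quantile normalization turned the split to 669 higher and 602 lower, so the excess of lower calls depends on the scaling. With the filter of at least 10 CPM refitted, it was 200 higher and 170 lower. The median log2 difference also ran from -0.45 in the lowest quartile of genes by expression to 0.10 in the highest, and from -0.18 in genes with transcripts up to 1275 bases to 0.11 in those of 2353 bases or more. At 3 h these length groups had -0.07 and -0.10, and the part of length in the calls was not tested. Leaving out 1 of the 4 columns brought the count to 500 (290 higher, 210 lower) and 294 (84 and 210) without A1(c+) replicate 1 or 2, and to 136 (76 and 60) and 115 (66 and 49) without T6(c-) replicate 1 or 2.

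**Figure D1:**
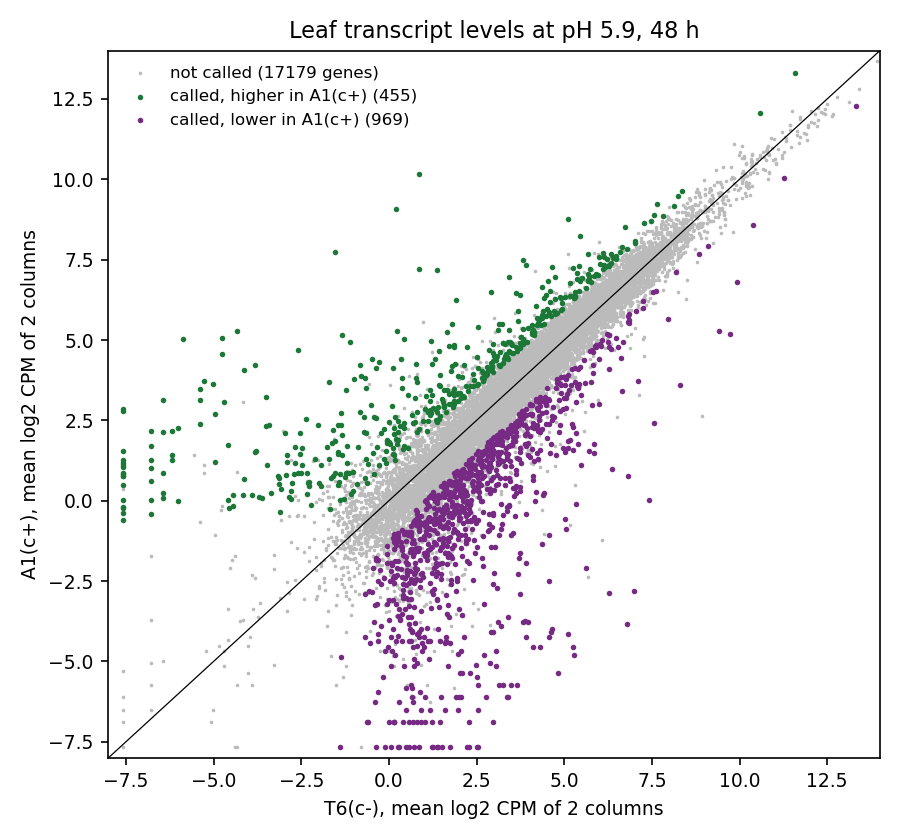
Mean log2 CPM of the 2 A1(c+) columns (y axis) against that of the 2 T6(c-) columns (x axis) at pH 5.9 and 48 h, 1 point per gene. The 455 genes higher in A1(c+) lie above the bulk of points and the 969 lower genes below it, many of them at low levels.

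The widest differences at 48 h were genes read in 1 deme and nearly absent from the other at that harvest. Of the called genes, 44 reached at least 10 CPM in 1 deme and stayed under 0.5 CPM in both columns of the other, 15 of them in A1(c+) and 29 in T6(c-). Among the widest differences, AT4G16215 is not one of these 44, as its level in T6(c-) stayed above 0.5 CPM. This uncharacterized gene (chr4:9179244-9179833) had 1033 and 1251 CPM in A1(c+) and 1.53 and 2.14 CPM in T6(c-) at 48 h, a log2 difference of 9.30 (SE 1.45, adjusted p = 0.00264, limma). At 3 h it had 1775 and 1679 CPM against 2.80 and 1.59 CPM. The demes did not overlap at either harvest, where 74.6% of all genes did not at 48 h. The gene was called the same way in all 6 deme comparisons of the series.

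AT4G20210 (chr4:10913470-10918371), annotated as a terpenoid cyclase, had 229 and 200.3 CPM in A1(c+) and 0.246 and 0.488 CPM in T6(c-), a log2 difference of 9.27 (SE 2.13, adjusted p = 0.0133, limma). Its neighbour AT4G20220, annotated as a reverse transcriptase, had 12.6 and 9.76 CPM against 0.0351 and 0.0161 CPM. Both genes of this pair were thus read only at trace levels in T6(c-). AT2G05642, annotated as an OB-fold nucleic acid-binding protein, had 29.7 and 36.0 CPM against 0.00502 and 0.0590 CPM, with a fitted log2 difference of 10.89 (SE 1.41, adjusted p = 0.00112, limma). AT5G42530 (447 and 653 against 0.647 and 2.03 CPM) and AT2G13550 (11.1 and 15.6 against 0.0251 and 0.0268 CPM), both uncharacterized, were also higher in A1(c+). Like AT4G16215, AT5G42530 is outside the 44 genes.

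In the other direction, AT3G22235 (chr3:7854419-7855814), annotated as a cysteine-rich TM module stress tolerance protein, had 0.0904 and 0.0552 CPM in A1(c+) and 108 and 115 CPM in T6(c-), a log2 difference of -10.62 (SE 1.69, adjusted p = 0.00279, limma). AT5G21020, an uncharacterized gene, had 0.138 and 0.146 CPM against 124 and 132 CPM. The RRM protein gene AT5G53700 had 0.0333 and 0.0552 CPM against 38.5 and 37.6 CPM. These 3 genes were as low in A1(c+) at 3 h, between 0.00448 and 0.0582 CPM. Others were not: the terpene synthase gene TPS12 had 0.00476 and 0.0452 CPM in A1(c+) at 48 h but 0.964 and 0.748 CPM at 3 h, against 10.5 and 10.04 CPM and 6.63 and 6.45 CPM in T6(c-). The peroxidase gene AT2G38390 had 2 reads over both A1(c+) columns against 2016 reads in T6(c-), a ratio of 1070 with a counting interval from 296 to 8838, yet 1.09 and 0.381 CPM in A1(c+) at 3 h. Terpene synthases make volatile and other terpenes, and peroxidases of this class act largely in the cell wall. Some of the 44 genes were well read in A1(c+) at 3 h. The papain protease gene AT4G11320 had 0.157 and 0.346 CPM in A1(c+) at 48 h but 27.2 and 21.7 CPM at 3 h. CYP81F4 had 0.338 and 0.457 CPM in A1(c+) at 48 h but 18.5 and 10.7 CPM at 3 h. Neither was called between demes at 3 h.

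Of the 24 genes with the widest called differences among those with at least 10 CPM in the higher deme, 12 in each direction, 19 were called the same way at 3 h, against 4.73% of all genes called at 3 h in either direction. Only AT2G05642, AT4G16215, AT2G13550, AT3G22235, AT5G21020 and AT5G53700 of these 24 stayed called under every alternative run other than the 10 CPM filter. Across all columns, the genes near 0 in 1 deme were placed on either side of the midpoint of the deme means at pH 5.9 and 48 h. Both A1(c+) columns at pH 5.9 and 48 h stood on the A1(c+) side for all 44 genes and both T6(c-) columns for none, which is how the genes were chosen. In columns that did not choose them, A1(c+) at pH 5.9 and 3 h had 33 and 37 genes on its side and T6(c-) at pH 5.9 and 3 h had 0 and 0. Of the 29 genes lower in A1(c+), these A1(c+) columns had 10 and 7 on the T6(c-) side. The second A1(c+) column of bic at 3 h had 18 and the first of pH 8.3 at 48 h had 31, where the other A1(c+) columns outside pH 5.9 had 40 to 44. T6(c-) in pH 8.3 at 48 h had 16 and 1, in bic at 48 h 15 and 10, in bic at 3 h 0 and 11, and in pH 8.3 at 3 h 1 and 6. Most of these were among the 15 genes higher in A1(c+). Of those 15, the same columns had 11 and 1, 14 and 10, 0 and 11, and 0 and 6 on the A1(c+) side.

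**Figure D2:**
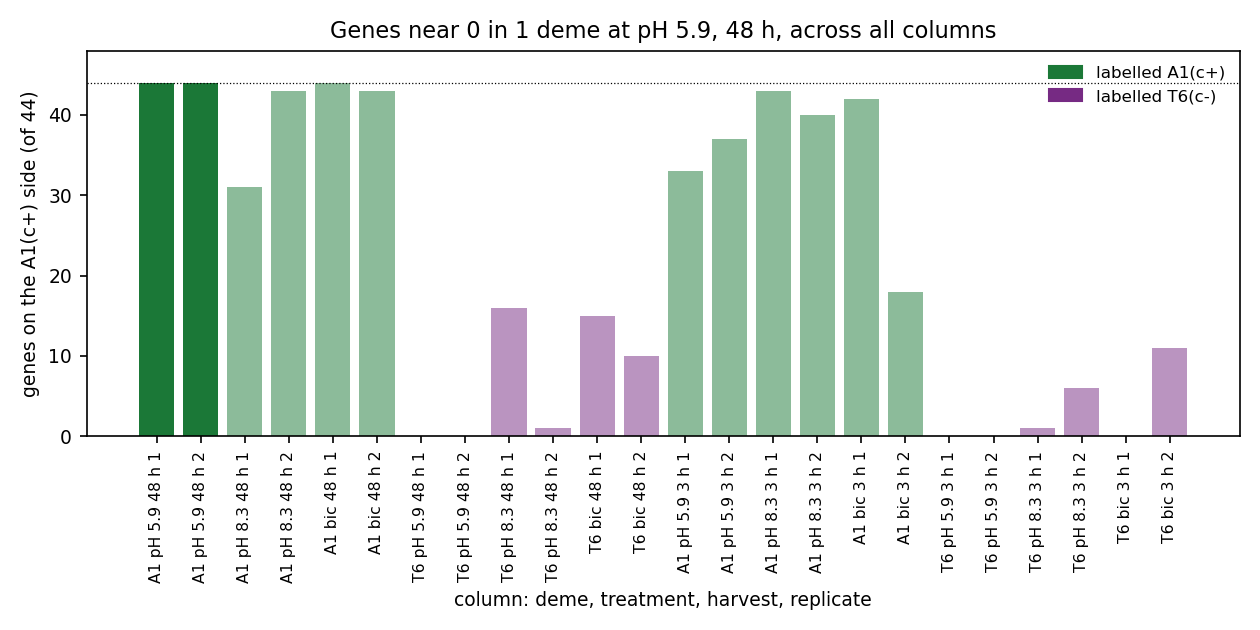
Number of the 44 genes near 0 in 1 deme (y axis) that stood on the A1(c+) side in each of the 24 columns (x axis, by deme, treatment, harvest and replicate). Full colour marks the 4 columns compared, at 44, 44, 0 and 0, and the second A1(c+) column in bic at 3 h stands at 18.

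Some deme differences lay in gene families of plant immunity and specialised metabolism. Nucleotide-binding leucine-rich repeat proteins detect pathogen effectors inside the cell, receptor-like kinases and proteins sense ligands at its surface, and F-box proteins select proteins for degradation. Of 138 measured genes annotated as disease resistance proteins, 22 were higher and 13 lower in A1(c+), 25.4% called against 7.65% of all genes. Of 166 receptor-like proteins and kinases, 7 were higher and 22 lower (17.5%). Of 161 F-box genes 9 were higher and 14 lower (14.3%), and of 137 cytochrome P450 genes, which encode oxidases of specialised metabolism and hormones, 10 were higher and 11 lower (15.3%). Glutathione transferases, which conjugate toxic compounds, had 1 of 42 higher and 2 lower (7.14%), close to the background. Among all genes under 10 CPM, 3.33% were higher and 10.6% lower, and the families were not set against genes of like level.

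The TIR-NBS-LRR gene AT3G44670 had 137 and 162 CPM in A1(c+) and 1.90 and 1.75 CPM in T6(c-), a log2 difference of 6.35 (SE 0.99, adjusted p = 0.00264, limma). AT5G36930, of the same class, had 27.9 and 40.7 CPM against 0.0151 and 0.0911 CPM. Reads of these families can be shared among close copies, so the level of any single member is uncertain. Conversely, AT4G19520 had 0.148 and 0.125 CPM in A1(c+) and 78.5 and 77.3 CPM in T6(c-). ADR1-L3, of the helper class of resistance proteins, had 3 reads over the A1(c+) columns against 2168 reads, a ratio of 767 (262 to 3721). AT1G63350 and AT5G48770 had 0 reads in A1(c+), where the floor of 3 reads over the group made them at least 176-fold and 194-fold lower than in T6(c-).

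Among receptors, RK2 had 1.34 and 2.21 CPM in A1(c+) and 113 and 112 CPM in T6(c-), a log2 difference of -6.03 (SE 0.91, adjusted p = 0.00227, limma), and 4.92 and 6.004 CPM against 126 and 130 CPM at 3 h. The groups did not overlap at either harvest, where those of 74.6% of all genes did not at 48 h. The receptor-like protein genes RLP3 (4.34 and 5.68 against 0.0953 and 0.0804 CPM) and RLP42 (7.98 and 10.8 against 0.0953 and 0.0804 CPM) were higher in A1(c+), and RLP2 (0.0428 and 0.0552 against 2.78 and 3.50 CPM) was lower. RLP2 and RLP3 are close relatives. Among the P450s, CYP71B14 had 23.97 and 27.4 CPM against 0.206 and 0.134 CPM, and CYP705A19 142 and 167 CPM against 25.9 and 24.8 CPM. CYP78A5, known for promoting organ growth, had 4 reads over both A1(c+) columns against 543 in T6(c-). CYP82G1, known for making a volatile homoterpene, had 1 read in T6(c-) against 429 in A1(c+), a ratio of 404 (72.2 to 16005). CYP71B14 overlaps a gene on the opposite strand, which unstranded counting would not separate.

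Some called genes sat beside one another, which was not set against the share that position alone gives. Of 1406 called genes on the chromosomes, 205 (14.6%) had an adjacent measured gene called the same way, and 11 runs held 3 or more. In 1 run, from chr1:3055231 to 3068796, AT1G09490 had 3.95 and 2.24 CPM in A1(c+) against 37.3 and 38.5 CPM, and AT1G09500 2.72 and 0.316 CPM against 40.5 and 39.9 CPM. Both are annotated as NAD(P)-binding Rossmann-fold proteins, and the run was lower in A1(c+) throughout. In another, on chr1:23489805-23506967, 4 genes including AT1G63350 and AT1G63360 (0.0333 and 0.0552 against 18.0 and 16.7 CPM), both of the CC-NBS-LRR class, were lower. A region on chromosome 2 is a near-identical copy of the mitochondrial genome. Of its 21 measured genes 10 were higher and 1 lower, where 2.45% and 5.21% of all genes were. Their median log2 difference was 2.11. Reads there cannot be assigned to nucleus or mitochondrion with certainty, and the summed level of 156 and 467 CPM in A1(c+) overlapped the 116 and 184 CPM of T6(c-).

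About as many of the higher genes were shared with the first harvest as were not. Of the 455 genes higher in A1(c+) at 48 h, 221 (48.6%) were also higher at 3 h, which is 49.0% of the 451 genes higher at 3 h (2.42% of all genes). Of the 969 lower genes, 244 (25.2%) were also lower, which is 56.9% of the 429 at 3 h (2.31%). No gene of the first list and 4 of the second were called the opposite way. Without a call, 93.0% of the higher and 94.1% of the lower genes kept their sign at 3 h, where 43.5% of all genes were higher and 56.5% lower in A1(c+). Across all 6 deme comparisons of the series, 19 genes were called higher and 6 lower every time, and 187 and 280 were called at pH 5.9 and 48 h alone. In the other comparisons the shares of all genes called higher and lower were 0.5% and 0.317% at pH 8.3 and 48 h and 2.81% and 7.69% in bic at 48 h. At 3 h they were 1.81% and 9.54% at pH 8.3 and 1.32% and 2.92% in bic, so the comparisons had unequal room for shared genes. Columns outside pH 5.9 that stood on the side of the other deme for part of the 44 genes also enter these counts, and their effect was not tested.

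At 48 h, both demes held high levels of the dawn genes CCA1 and LHY. All 4 columns stood above every 3 h column of pH 5.9 for these genes, and below every one for the evening genes TOC1, ELF3 and GRP7. The share of all genes so separated at pH 5.9 was not counted. Other evening genes did not fall: GI, ZTL and LKP2 rose at 48 h in A1(c+) by log2 0.63, 0.46 and 0.38, without a call. LUX hardly moved in T6(c-), by log2 -0.02. CCA1 had 735 and 882 CPM in A1(c+) and 589 and 574 CPM in T6(c-) at 48 h, against 161 and 132 CPM and 120.0 and 120 CPM at 3 h. The 48 h columns lay above all 3 h columns in both demes, by log2 2.47 (SE 0.28) in A1(c+) and 2.28 (SE 0.28) in T6(c-), with adjusted p of 5.8e-05 and 0.000118 by limma. Its partner LHY had 743 and 794 CPM and 456 and 463 CPM at 48 h, against 36.1 and 18.7 CPM and 21.3 and 20.7 CPM at 3 h, changes of log2 4.89 (SE 0.32) and 4.45 (SE 0.32).

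The other dawn genes followed in part. RVE8, a MYB factor that activates evening genes, had 130 and 172 CPM and 162 and 161 CPM at 48 h against 39.6 and 36.9 CPM and 43.4 and 44.8 CPM at 3 h. Its coactivator LNK2 had 1300 and 1540 CPM and 1182 and 1151 CPM against 451 and 497 CPM and 286 and 291 CPM. Both genes were separate by harvest, and at 48 h the demes overlapped for RVE8 and not for LNK2, whose deme difference did not pass. Of the 15 dawn genes, 7 rose from 3 h to 48 h in A1(c+) (3.38% of all genes did) and 5 in T6(c-) (2.13% of all genes), and none fell. RVE1, which links the clock to auxin, had 36.9 and 47.1 CPM in A1(c+) and 13.3 and 13.9 CPM in T6(c-) at 48 h. Its deme difference of log2 1.62 (SE 0.68) did not pass the test, with an adjusted p of 0.127 by limma.

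Among the day genes, PRR9 led at 48 h and PRR7 at 3 h, as a description of levels per length. In CPM per kb of transcript at 48 h, PRR9 had 88.8 in A1(c+) and 74.8 in T6(c-), PRR7 48.9 and 37.2, and PRR5 1.098 and 1.37. At 3 h PRR7 led with 103 and 66.2 CPM per kb, PRR9 had 61.2 and 47.4, PRR5 9.77 and 9.96 and TOC1 6.28 and 8.34. PRR9 and PRR7 thus changed places between the harvests in both demes. In CPM, PRR3 fell from 5.76 and 11.8 to 0.747 and 3.90 in A1(c+) and from 7.40 and 7.88 to 0.798 and 0.627 in T6(c-), and PRR7 fell in A1(c+) by 1.09 on the log2 scale. PRR5 had 1.09 and 2.59 CPM in A1(c+) and 2.06 and 2.54 CPM in T6(c-) at 48 h, against 12.5 and 20.3 CPM and 17.0 and 16.4 CPM at 3 h, a fall that passed in A1(c+) alone (adjusted p of 0.0291 and 0.0582, limma), and the demes overlapped at 48 h.

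Of the evening genes, TOC1 and ELF3 were lower at 48 h in both demes. TOC1, which represses CCA1 and LHY, had 4.82 and 7.13 CPM in A1(c+) and 9.17 and 9.05 CPM in T6(c-) at 48 h, and 16.0 and 19.3 CPM and 24.03 and 22.8 CPM at 3 h. It fell by 1.58 (SE 0.28) on the log2 scale in A1(c+) and fell by 1.36 (SE 0.28) in T6(c-). ELF3, the scaffold of the evening complex, had 1.99 and 4.27 CPM and 3.12 and 2.88 CPM at 48 h against 8.29 and 15.2 CPM and 13.6 and 13.5 CPM at 3 h. Its demes overlapped at 48 h. GI, a partner of the blue-light receptor FKF1 in photoperiodic flowering, had 107 and 124 CPM and 93.9 and 93.5 CPM at 48 h and passed no test. Of the 8 measured evening genes 3 fell in A1(c+) (11.7% of all genes fell) and 2 in T6(c-) (7.09% of all genes).

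Clock outputs differed between the harvests too. GRP7, an RNA-binding protein of a slave oscillator that peaks in the evening, had 24.1 and 41.2 CPM in A1(c+) and 39.5 and 41.0 CPM in T6(c-) at 48 h, against 305 and 807 CPM and 507 and 513 CPM at 3 h. It fell by 3.98 (SE 0.56) on the log2 scale in A1(c+) and fell by 3.66 (SE 0.56) in T6(c-), and the demes overlapped at each harvest. The starch synthase gene GBSS1, a morning output, had 1820 and 1674 CPM and 1828 and 1836 CPM against 324 and 252 CPM and 292 and 294 CPM. PHS2, a starch-breakdown phosphorylase of the cytosol, had 74.2 and 104 CPM and 35.2 and 36.5 CPM at 48 h against 239 and 225 CPM and 234 and 234 CPM at 3 h. The chloroplast beta-amylase gene BAM3 went the other way, from 357 and 239 CPM and 353 and 355 CPM at 3 h to 1928 and 1761 CPM and 1659 and 1629 CPM. Of 9 evening outputs, 5 fell in A1(c+) (11.7% of all genes fell) and 7 in T6(c-) (7.09%), and 1 rose in each. The 8 morning outputs were mixed: 2 rose and 2 fell in A1(c+), and 3 rose and 1 fell in T6(c-). PIF4, a morning output, fell in both demes, by 1.37 on the log2 scale in A1(c+) and 1.35 in T6(c-).

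**Figure D3:**
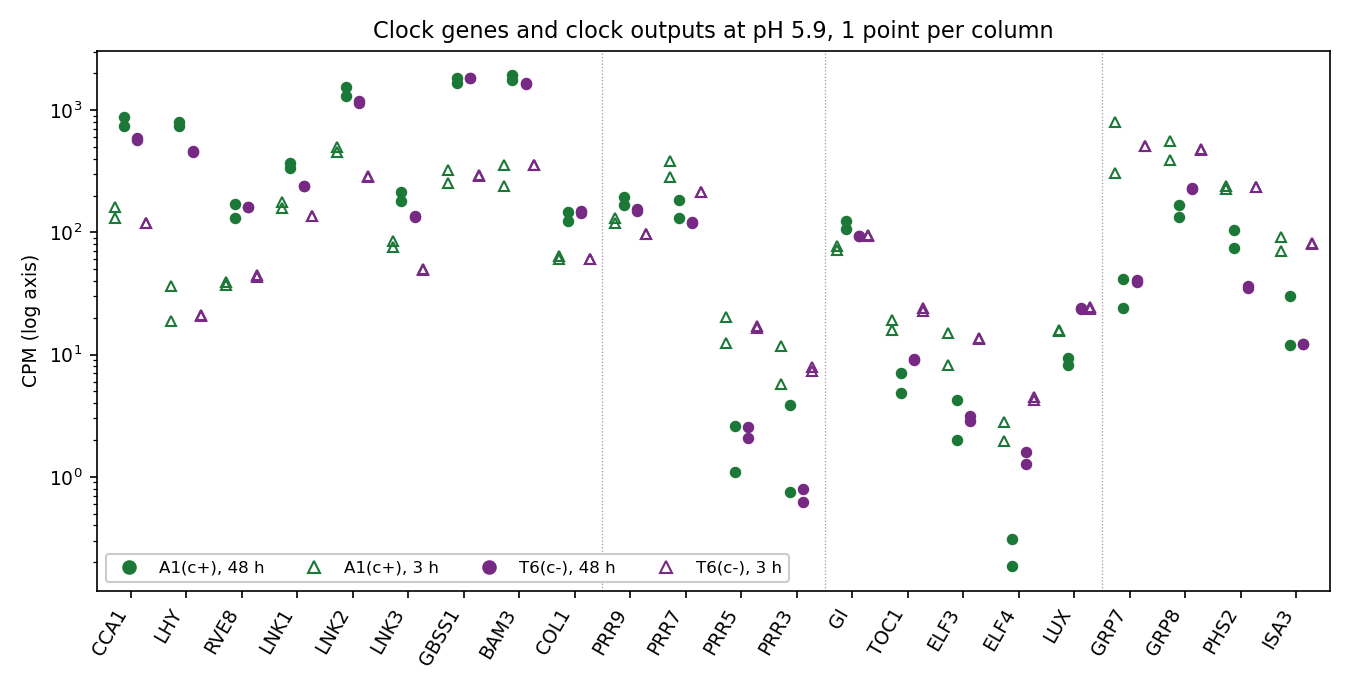
CPM on a log axis (y) of 22 clock genes and outputs (x) at pH 5.9, with 1 point per column, filled for 48 h and open for 3 h. CCA1 and LHY at 48 h stand at 456 to 882 CPM, above every 3 h point, while GRP7 at 48 h lies at 24.1 to 41.2 CPM, below its 3 h points of 305 CPM and more.

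In all, 23 of 44 measured clock genes differed between the harvests in A1(c+), 10 higher and 13 lower at 48 h, and 20 in T6(c-), 9 higher and 11 lower, where 15.1% and 9.22% of all genes were called. Leaving out 1 column brought the A1(c+) count to between 13 and 20, the lowest without A1(c+) 48 h replicate 1 or A1(c+) 3 h replicate 2, and the T6(c-) count to 15 or 16. The harvests stood apart in every treatment for 14 of the 44 genes, whose 12 columns of 48 h did not overlap the 12 of 3 h, as in 3.48% of all genes. CCA1 ran from 409 to 890 CPM at 48 h and from 92.2 to 175 CPM at 3 h, LHY from 267 to 893 and from 9.001 to 36.1 CPM, and GRP7 from 24.1 to 94.9 and from 277 to 807 CPM. No clock gene passed the test of whether its deme difference itself changed between the harvests.

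Between the demes at 48 h, 2 of the 44 clock genes were called, both lower in A1(c+), where 7.65% of all genes were called and 5.21% were lower. LUX, the DNA-binding subunit of the evening complex, had 9.43 and 8.23 CPM in A1(c+) and 23.9 and 23.5 CPM in T6(c-), a log2 difference of -1.43 (SE 0.41, adjusted p = 0.0336, limma). The groups did not overlap, like those of every called gene. At 3 h the levels were 16.0 and 15.7 CPM against 23.7 and 24.4 CPM, not called. COR28, a cold-regulated clock repressor, had 6 reads over both A1(c+) columns against 76 in T6(c-), a log2 difference of -3.51 (SE 1.02, adjusted p = 0.0349, limma). Neither call held when any 1 of the 4 columns was left out, with adjusted p between 0.0962 and 0.188 by limma. For LUX the adjusted p was 0.0638 with quantile normalization, 0.113 with only the 48 h columns and 0.069 with the spread from the other 10 groups. For COR28 these were 0.265, 0.149 and 0.0738, and with a pseudocount of 0.1 or 1 CPM its log2 difference shrank to -1.91 and -0.43 without a call. ELF4, the third subunit, had 0.309 and 0.186 CPM against 1.59 and 1.27 CPM without passing (log2 -2.57, SE 0.95, adjusted p = 0.0831, limma). LKP2, LNK1, RVE4 and GRP8 had an adjusted p under 0.05 and log2 differences of 0.45, 0.56, 0.60 and -0.61, below the limit.

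The evening element was searched in the 250 bases before each annotated gene start in the TAIR10.1 assembly (RefSeq), as AAATATCT or, on the other strand, AGATATTT. The sites that CCA1 binds in the light-harvesting gene promoter were searched likewise as AAAAATCT or AGATTTTT, a motif whose letters differ from the evening element. Of 18535 upstream stretches, 933 (5.03%) held the evening element and 1283 (6.92%) the CCA1 site, and of the 44 clock genes 12 (27.3%) and 7 (15.9%). The upstream stretches of LUX, a clock gene called between demes, and of 3 genes that were lower at 48 h than at 3 h are shown 5′ to 3′ along the gene's strand, with evening elements, and in PRR5 also a CCA1 site before the evening element, in capitals. They lie at chr3:17182792-17183041, plus strand, chr5:8358547-8358796, minus strand, chr5:24674713-24674962, plus strand and chr2:9266558-9266807, minus strand.
LUX: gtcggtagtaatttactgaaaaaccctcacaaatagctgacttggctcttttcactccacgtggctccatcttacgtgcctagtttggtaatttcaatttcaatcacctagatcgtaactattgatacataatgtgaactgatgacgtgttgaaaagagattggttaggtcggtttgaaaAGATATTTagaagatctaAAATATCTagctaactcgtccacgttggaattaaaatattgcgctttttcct
PRR5: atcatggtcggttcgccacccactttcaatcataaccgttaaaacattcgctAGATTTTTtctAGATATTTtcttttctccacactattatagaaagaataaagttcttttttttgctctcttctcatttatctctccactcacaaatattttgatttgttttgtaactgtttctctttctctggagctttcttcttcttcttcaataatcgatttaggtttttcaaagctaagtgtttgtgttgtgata
TOC1: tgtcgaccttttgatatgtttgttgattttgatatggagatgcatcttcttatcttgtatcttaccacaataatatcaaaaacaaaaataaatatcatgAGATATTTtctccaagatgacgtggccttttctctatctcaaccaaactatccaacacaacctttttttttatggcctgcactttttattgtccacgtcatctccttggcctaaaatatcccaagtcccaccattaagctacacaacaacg
GRP7: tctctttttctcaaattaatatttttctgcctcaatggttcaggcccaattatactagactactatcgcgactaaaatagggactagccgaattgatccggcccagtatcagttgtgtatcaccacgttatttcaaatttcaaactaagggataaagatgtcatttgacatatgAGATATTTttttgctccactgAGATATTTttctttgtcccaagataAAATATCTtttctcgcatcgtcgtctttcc
LUX carries 2 evening elements, GRP7 carries 3, and PRR5 and TOC1 carry 1. No capital run overlaps another.

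The harvests were then read against these letters, as a description. Of the 933 genes with an evening element, 81 (8.68%) were lower at 48 h in both demes, where 4.47% of all genes were, and 6 (0.643%) were higher in both, where 1.47% of all genes were. Of the 1283 genes with a CCA1 site, 55 (4.29%) were lower and 23 (1.79%) higher in both demes. Of the 12 clock genes with an evening element, 4 (33.3%) were lower in both demes and 0 higher. By the looser rule of 1 or both demes, 6 of the 12 were lower and 1 higher, against 210 and 29 of the 933 genes. Of all genes, 11.7% were lower at 48 h in A1(c+) and 7.09% in T6(c-). Between the demes at 48 h, LUX alone of those 12 was called, where 7.65% of all genes were. A match is a run of letters in the reference and not a shown binding site, and the demes' own promoters were not read.

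Of the 22 lists, the one of phosphate starvation held the most genes called higher in A1(c+). When phosphate is short, plants replace membrane phospholipids by sulfolipids and galactolipids, and secrete acid phosphatases. Of 14 measured genes, 5 were higher in A1(c+) at 48 h and none lower (35.7% called, against 7.65% of all genes). The list median log2 difference was 1.34, against -0.04 over all genes. The sulfolipid synthase gene SQD2 had 156 and 162 CPM in A1(c+) and 44.9 and 41.3 CPM in T6(c-), a log2 difference of 1.88 (SE 0.27, adjusted p = 0.00168, limma). At 3 h it had 87.3 and 75.9 CPM against 60.7 and 58.7 CPM and was not called. SQD1, which makes the sulfoquinovose donor for SQD2, had 123 and 130.1 CPM against 65.0 and 63.4 CPM, with a log2 difference of 0.98 just under the limit (adjusted p = 0.00468).

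PAP17, a purple acid phosphatase, had 116 and 124 CPM in A1(c+) and 40.3 and 42.5 CPM in T6(c-), a log2 difference of 1.54 (SE 0.44, adjusted p = 0.0334, limma), and 22.6 and 25.7 CPM against 20.9 and 21.4 CPM at 3 h. Both the SQD2 and the PAP17 columns were separate by deme at 48 h, as those of every called gene were. The galactolipid synthase genes MGD2 (7.34 and 8.99 against 3.31 and 3.25 CPM) and MGD3 (1.11 and 1.70 against 0.296 and 0.231 CPM) were also higher. The phosphate sensor gene SPX2 had 25.5 and 28.2 CPM against 13.3 and 13.5 CPM, with a log2 difference of 1.00 just past the limit. Only MGD2 of the 5 was called at 3 h. Between 1 and 3 of the 5 remained called when 1 of the 4 columns was left out. PAP17 overlaps a gene on the opposite strand.

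Glucosinolates are sulfur-rich defence compounds of the cabbage family, which a myrosinase breaks down when tissue is damaged. Of 16 genes of side-chain change and breakdown, 3 were higher and 1 lower (25.0%), against 7.65% of all genes called. ESP, which steers breakdown toward nitriles, had 9282 and 11157 CPM in A1(c+) and 3109 and 3047 CPM in T6(c-), a log2 difference of 1.73 (SE 0.32, adjusted p = 0.00548, limma). The myrosinase gene TGG1, whose enzyme starts the breakdown, had 4328 and 4299 CPM against 1507 and 1536 CPM, a log2 difference of 1.504 (SE 0.33, adjusted p = 0.0108, limma). At 3 h the demes were close, with 3823 and 4367 against 4671 and 4643 CPM for ESP and 1402 and 2302 against 1552 and 1555 CPM for TGG1. Neither passed the test of a change in the deme difference between the harvests.

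FMOGS-OX2 (37.3 and 52.8 against 21.2 and 19.3 CPM) was higher and FMOGS-OX3 (47.7 and 51.1 against 115 and 117 CPM) lower, and both oxidise methionine-derived glucosinolates. These genes have close copies nearby, so their levels are uncertain. Of 21 aliphatic genes, 1 was higher and 2 lower (14.3% called, against 7.65% of all genes). The activator gene MYB76 had 1.53 and 1.64 CPM against 0.0552 and 0.0590 CPM, and BCAT4, of methionine chain elongation, had 129 and 148 CPM against 288 and 292 CPM. Both kept that side at 3 h and were called there. Of 14 indolic genes, 3 were lower and none higher (21.4% called), with a median of -0.93. The regulator gene MYB34 had 17.3 and 17.7 CPM against 41.1 and 37.9 CPM, a log2 difference of -1.17 (SE 0.19, adjusted p = 0.00347, limma). The glucosyltransferase gene UGT74B1 had 61.9 and 58.9 CPM against 133 and 131 CPM, and CYP81F4, which modifies the indole ring, 0.338 and 0.457 CPM against 20.9 and 20.3 CPM. When 1 column was left out, 0 or 1 of the 4 calls of the breakdown list and 1 or 2 of these 3 remained.

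Calls among genes of cell division were all lower in A1(c+). Of 17 mitotic cell cycle genes, 7 were lower and none higher (41.2%), with a median of -2.003, where 5.21% of all genes and 10.6% of those under 10 CPM were lower. The lowest quartile of all genes by expression had a median of -0.45. Their summed level was 19.2 and 21.0 CPM in A1(c+) and 85.1 and 86.5 CPM in T6(c-) at 48 h, and 87.9 and 70.3 CPM against 212 and 207 CPM at 3 h. CYCD3;1, a cyclin that drives entry into the cycle, had 1.81 and 2.05 CPM against 12.4 and 12.3 CPM, a log2 difference of -2.68 (SE 0.78, adjusted p = 0.0352, limma). PCNA1, the sliding clamp of DNA replication, had 2.27 and 2.55 CPM against 9.14 and 8.86 CPM, and the mitotic cyclin gene CYCB2;2 0.186 and 0.156 CPM against 2.23 and 2.24 CPM. MCM2 and MCM5, of the replication helicase, AUR1, a mitotic kinase, and CYCB2;1 were the other 4. The groups did not overlap for any of the 7, and none of the 7 stayed called when any 1 of the 4 columns was left out. With a fit on the 48 h columns alone, 1 stayed called. Columns of the demes that do not overlap are shared by every called gene and by 74.6% of all genes.

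Beside these, the meristem gene STM, which keeps shoot stem cells undifferentiated and is no leaf gene, had 2 reads over both A1(c+) columns against 1134 in T6(c-), a ratio of 602 (166 to 4974). At 3 h it had 1.98 and 0.864 CPM in A1(c+) and 5.13 and 4.97 CPM in T6(c-). The call (adjusted p = 0.0339, limma) was lost when any 1 of the 4 columns was left out. Of 13 markers of other organs, only STM and the flower genes PI and SEP3 were measured. PI had 0.224 and 0.0652 CPM against 0.918 and 1.01 CPM without passing the test. SEP3 went the other way, with a log2 difference of 0.81 that was not called. The 3 summed to 0.547 and 0.426 CPM in A1(c+) and 7.10 and 6.96 CPM in T6(c-), a sum that in T6(c-) was mostly STM. How much of the young shoot tip was harvested with the leaves is not given in the sources used here, and its part in the cell cycle difference was not tested.

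**Figure D4:**
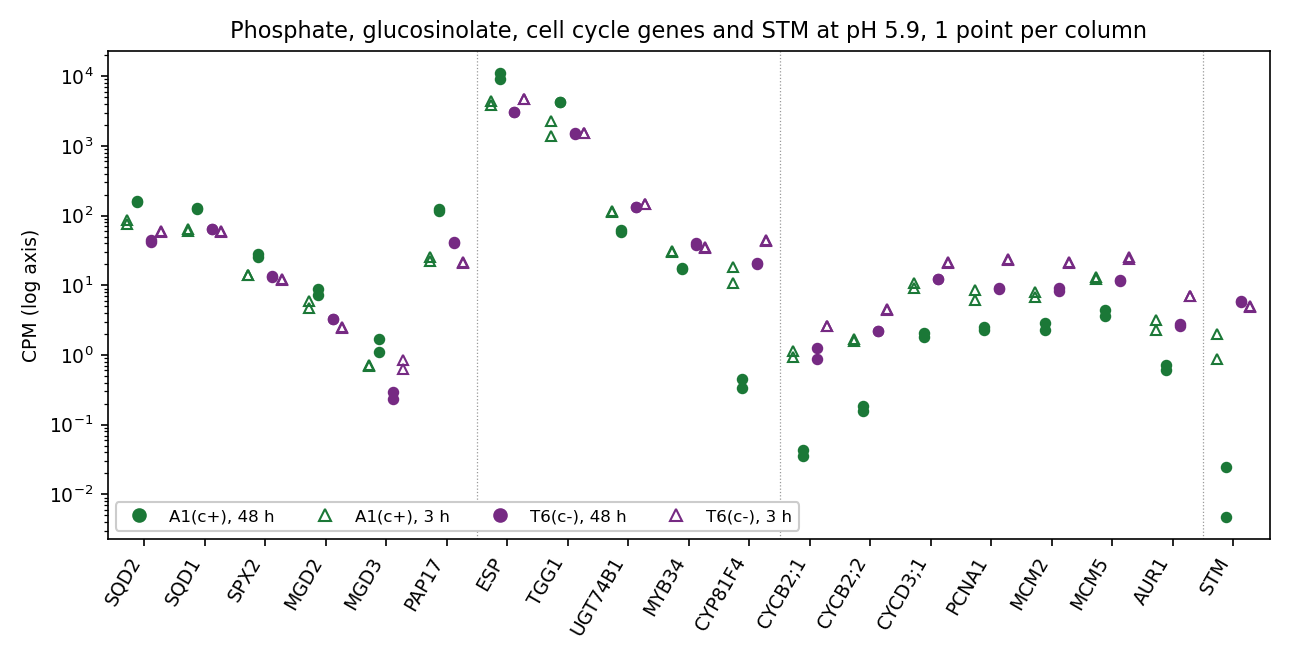
CPM on a log axis (y) of phosphate, glucosinolate and cell cycle genes and STM (x) at pH 5.9, 1 point per column, filled for 48 h and open for 3 h. SQD2 and ESP at 48 h stand higher in A1(c+) than in T6(c-), and the 7 cell cycle genes and STM stand lower.

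Other lists held few calls, where 7.65% of all genes were called, 2.45% higher and 5.21% lower. Of 14 cold-regulated genes 3 were higher, among them RD29A, a desiccation-response gene, with 184 and 235 CPM against 66.5 and 70.4 CPM, and KIN1 with 7.51 and 3.50 CPM against 0.366 and 0.370 CPM. RD29A and KIN1 were also called at 3 h. Of 17 flowering genes, SPL3, a promoter of flowering, was higher (18.0 and 34.4 against 9.04 and 9.03 CPM) and SMZ, a repressor, lower (0.871 and 0.938 against 10.4 and 11.2 CPM). FLC, the main vernalization repressor, had 72.4 and 96.7 CPM against 83.3 and 91.6 CPM, and the demes overlapped. Of 25 jasmonate genes, AOC1 alone was called, at 22.0 and 42.9 CPM against 10.3 and 10.6 CPM, and its close copies make its level uncertain. Of 29 salicylate and defence genes and 8 heat shock genes, 0 were called.

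Among metal and sulfur genes, the iron transporter gene IRT1, which works in roots, was at trace levels in leaves of both demes, 0.0428 and 0.0753 CPM in A1(c+) and 0.878 and 0.745 CPM in T6(c-), and lower in A1(c+) at both harvests. It was the only one of 18 iron deficiency genes called (5.56%), with a list median of -1.14. For this list and those that follow, 7.65% of all genes were called. Of 10 genes of iron storage and sufficiency 2 were lower. The ferritin gene FER2 had 0.423 and 0.186 CPM against 2.08 and 2.15 CPM, and the vacuolar transporter-like gene VTL5 had 1 read in A1(c+) against 289 in T6(c-). The sulfur-deficiency gene LSU4 had 4.67 and 4.86 CPM against 1.37 and 1.31 CPM, 1 of 13. F3'H, a flavonoid hydroxylase, had 0.985 and 0.818 CPM against 10.7 and 10.8 CPM, 1 of 19. BT2, a sugar- and light-responsive scaffold gene, had 0.309 and 0.517 CPM against 4.95 and 4.24 CPM, 1 of 7 genes of darkness and sugar starvation. The calls of AOC1, IRT1, FER2, VTL5 and F3'H were lost whichever of the 4 columns was left out, and those of AOC1, IRT1, FER2 and VTL5 also with only the 48 h columns.

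**Figure D5:**
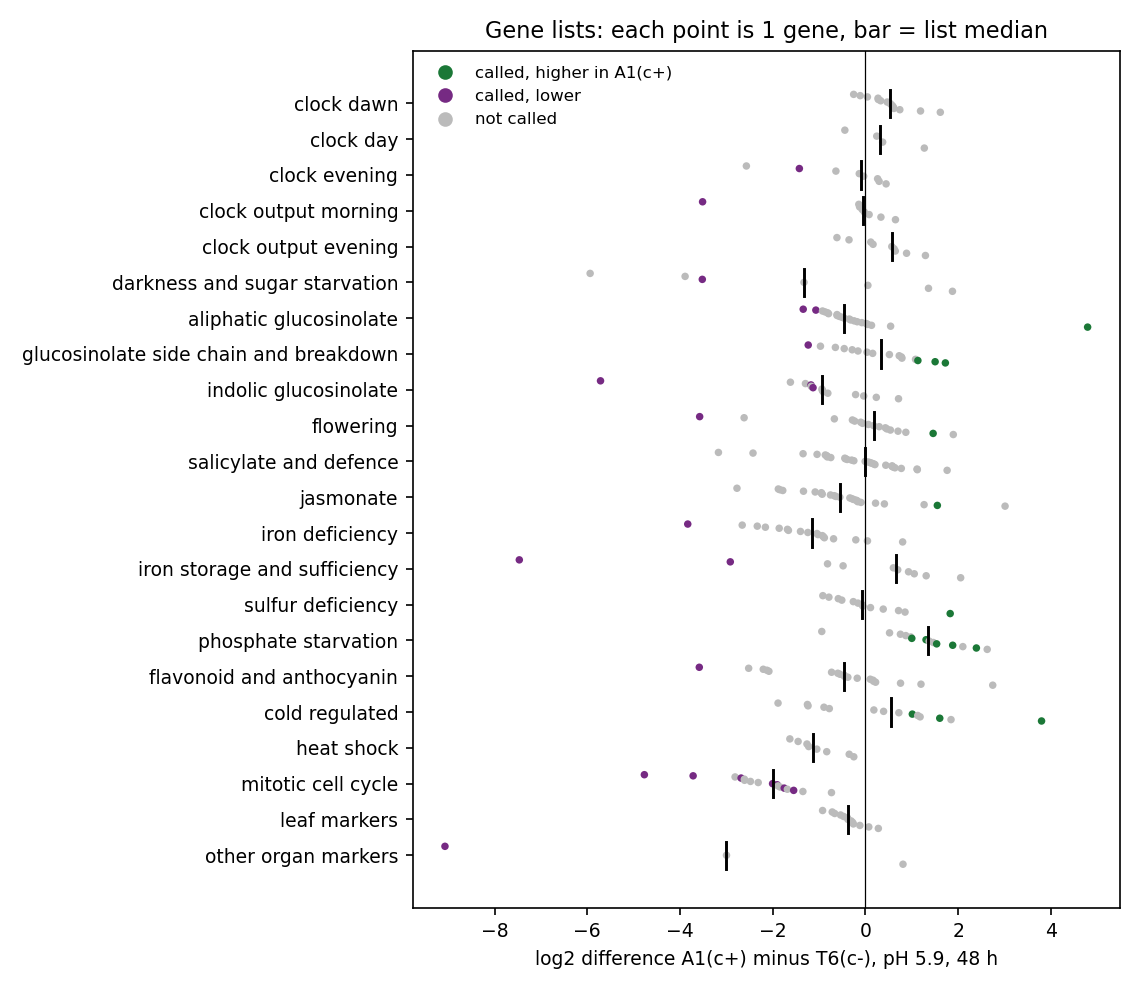
Log2 difference of A1(c+) minus T6(c-) at pH 5.9 and 48 h (x axis) for each measured gene of 22 lists (y axis), coloured where called, with a bar at each list's median. The phosphate list has a median of 1.34 and the mitotic cell cycle list one of -2.003.

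The 2 columns of A1(c+) differed from each other in some induced genes. The defensin gene PDF1.2 had 1.17 CPM in replicate 1 and 123 CPM in replicate 2, the systemic immunity gene FMO1 16.8 and 1.06 CPM, and the sugar-starvation gene DIN6 2.09 and 17.9 CPM. The evening-phased catalase gene CAT3 had 1166 and 3173 CPM, and at 3 h 896 and 2700 CPM, while T6(c-) had 1776 and 1775 CPM at 48 h. For CAT3 the 2 columns of A1(c+) thus lay on either side of both T6(c-) columns.

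The deme difference changed between the harvests in 98 genes (0.527%), in 62 toward A1(c+) at 48 h and in 36 toward T6(c-), by limma's test of the interaction of deme and harvest. The balance turned to 373 and 879 in a fit of only the pH 5.9 columns, to 337 and 600 with array weights and to 260 and 423 without the 3 columns made only of libraries whose names start with A. XTH6, a cell wall-loosening transglucosylase, had 204 and 202 CPM in A1(c+) and 51.6 and 50.02 CPM in T6(c-) at 48 h, against 24.5 and 26.3 CPM and 27.1 and 27.3 CPM at 3 h. The demes were close at 3 h and far apart at 48 h, a change of log2 2.096 (SE 0.44, adjusted p = 0.0301). The sulfate transporter gene SULTR3;1 had 171 and 130.1 CPM against 53.3 and 54.3 CPM at 48 h and 37.0 and 42.3 CPM against 45.7 and 47.5 CPM at 3 h. The photosystem II antenna gene LHB1B1 went from higher in A1(c+) at 3 h (1722 and 2653 against 822 and 800.4 CPM) to lower at 48 h (347 and 413 against 1332 and 1357 CPM), a change of log2 -3.23 (SE 0.43, adjusted p = 0.00409), and shares sequence with its neighbouring copies. The beta-amylase gene BAM5 went from 206 and 261 against 23.7 and 23.1 CPM to 78.6 and 63.2 against 125 and 121 CPM. Its neighbour FH3, a formin that organises actin, went the same way, from 48.8 and 112 against 6.07 and 6.22 CPM to 20.4 and 23.56 against 98.9 and 96.8 CPM. Leaving out 1 of the 8 columns brought the 98 genes to between 12 and 65, the lowest without T6(c-) 3 h replicate 1.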

How the data were processed

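Leaf RNA of 2 demes was sequenced as 72 libraries and deposited by the authors as log2 CPM, 1 table of 24 columns with a sum over 3 libraries in each, with 0.5 reads added before the log. The methods name TopHat alignment and DESeq 1.18.0 and the submitters' processing notes name FastQC, Trim Galore, Salmon and TAIR10. Which of them made the table, its counter and its annotation are not given in the sources used here. Low values stand for whole reads in every column (100% of values under 50 reads, within 0.05 of a read), which gave the read totals of 93.28 to 105.1 M for the 4 columns compared. Intervals of read ratios cover counting error only. Deposited columns of unknown sample were 0.

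The table's 18603 genes were fitted with limma 3.58.1 in R 4.3.3 on the deposited log2 CPM, with 1 mean per deme, treatment and harvest over all 24 columns and a mean-variance trend. The model had 12 residual and 2.54 prior degrees of freedom. A call needed an adjusted p (Benjamini-Hochberg) under 0.05 and a log2 difference beyond 1. An exact permutation test of 2 against 2 columns cannot go below 0.333 and was not used. The fit was tested on simulated data. Tables and figures were made with Python 3.11.15, pandas 2.3.3, NumPy 2.4.6 and matplotlib 3.10.9. Symbols and coordinates came from RefSeq's TAIR10.1 tables, which matched 18536 identifiers. Overlapping genes on opposite strands cannot be told apart where counting ignored strand, which the sources do not state (among named genes also SMZ, AUR1, LNK1, TPS12, ELF3 and BAM3).

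The text names the 12 widest called differences each way with at least 10 CPM, genes of fixed lists and annotated families, and the 5 largest interactions each way. Genes outside this rule were chosen after their values were seen: AT1G09490, AT1G09500, AT1G63360, AT4G11320 and FUM2. The genes, lists and tests were chosen with earlier results of these data known. Alternatives changed the normalization, pseudocount, filter, samples, trend, weights, fold limit and replicate block, or left out a column.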

Additional observations from a re-analysis of the deposited data

Results flagged for a closer look

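For 10 genes the deme difference at pH 5.9 changed between the harvests by limma's interaction test, as the 5 largest changes each way among genes with at least 10 CPM in 1 group. Given as the log2 deme difference at 48 h minus that at 3 h, AT1G38131, annotated as an O-fucosyltransferase, had 2.12 (20.8 and 16.6 CPM in A1(c+) against 9.97 and 10.6 CPM in T6(c-) at 48 h, and 6.80 and 4.08 CPM against 12.4 and 13.02 CPM at 3 h). XTH6 had 2.096 and SULTR3;1 had 1.71. The transporter gene UMAMIT20 had 2.03, with 28.8 and 31.3 CPM against 20.9 and 21.8 CPM at 48 h and 4.86 and 6.63 CPM against 16.3 and 16.6 CPM at 3 h. WAVE5, of the SCAR family of actin regulators, had 1.80, with 11.4 and 14.2 CPM against 7.64 and 6.85 CPM and then 7.04 and 6.25 CPM against 12.9 and 13.3 CPM. It overlaps a gene on the opposite strand.

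In the other direction FH3 had -5.75, BAM5 had -4.11 and LHB1B1 had -3.23. ATCSLA15, annotated as a nucleotide-diphospho-sugar transferase, had -4.12, with 13.3 and 8.002 CPM in A1(c+) against 27.7 and 28.5 CPM in T6(c-) at 48 h and 58.5 and 95.2 CPM against 11.7 and 11.7 CPM at 3 h. AT4G18440, annotated as an L-aspartase-like protein, had -3.29, with 24.8 and 32.9 CPM against 45.0 and 45.2 CPM and then 451 and 595 CPM against 84.0 and 83.8 CPM.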

How the results depend on the processing

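The count of 1424 genes called between demes at 48 h became 370 with a filter of at least 10 CPM, 2625 in a fit of only the groups compared, 407 in one of only the 48 h columns, 2706 in one of only the pH 5.9 columns, 2615 with array weights and 2643 with no fold limit. It was 115 to 500 when 1 of the 4 columns was left out, where the lone column is assumed to vary like the other groups. In alternatives chosen after seeing the data it was 2418 without the 3 columns made only of libraries whose names start with A and 786 with the spread taken from the other 10 groups. Quantile normalization split the calls 669 higher to 602 lower, and the filter 200 to 170, against 455 to 969. The interaction count of 98 became 1252 in a fit of only the groups compared and 1252 in one of only the pH 5.9 columns, 937 with array weights, 255 with no fold limit, 12 to 65 when 1 column was left out, 683 without those 3 columns and 16 with the spread from the other 10 groups. The clock count of 23 in A1(c+) was 13 to 20 when 1 column was left out. The 465 genes called the same way at 3 h became 125 with the filter, 1451 with only the pH 5.9 columns, 1318 with array weights, 1211 without those 3 columns and 59 to 233 when 1 column was left out.

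No deme difference or interaction that passed the test, of the genes named by the rule, changed its direction under the alternatives run, while uncalled differences and list medians near 0 changed sign under some. The balance of higher to lower calls did turn, as given beside those counts. Replicate numbers were not taken to pair the samples. Deviations of same-numbered columns of the 2 demes at 48 h had a correlation of -0.000946, while those of A1(c+) at 48 h and 3 h had 0.25 and those of T6(c-) 0.0804. The fit with a replicate block called 1300 genes, 426 higher and 874 lower, and 80 for the interaction. Of all called genes, 93 (53 higher, 40 lower) were called in every alternative run other than the 10 CPM filter. Of the alternatives that left out none of the 4 columns, again without that filter, 311 (133 and 178) were called in every one.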

Other observations

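FUM2, which encodes the cytosolic fumarase that stores carbon as fumarate in leaves by day, had 37.99 and 20.6 CPM in A1(c+) and 3.44 and 3.16 CPM in T6(c-) at 48 h, a log2 difference of 3.09 with an adjusted p of 0.001 by limma. It was called in every alternative run other than the 10 CPM filter, which was not looked at for it, and it was chosen after its values were seen.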
